A study of Mus musculus with 6 samples.

Results

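A pair of shRNA libraries of the CAPH2 knockdown, made with different hairpins, were compared with each other gene by gene. CAPH2, encoded by Ncaph2, is the kleisin subunit of condensin II. Hairpin R1 left less Ncaph2 transcript than hairpin R2. Of the 21201 genes in the RNA-seq tables, the comparison took the 12461 that had 50 or more counts in at least 1 of these libraries. They are 2 of the 6 libraries of the series, and the GFP control library and both SMC2 knockdown libraries were used as context.

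All libraries came from V6.5 murine embryonic stem cells (ESCs), a C57BL/6-129 line, which were kept on irradiated fibroblast feeders and moved to gelatin without feeders for 1 passage before analysis. Cells were infected with lentivirus carrying a hairpin against CapH2, Smc2, Smc1 or, as the control, GFP. The labels give selection in puromycin at 0.5 µg/ml for 48 h and then at 1 µg/ml for a further 48 h, so the control cells were selected too. The study's methods give another puromycin dose for its knockdowns. They also number these hairpins as the first and second against CAPH2 by clone identifier, whereas the labels number them otherwise. RNA from 652000 cells was mixed with 1.42 µl of diluted ERCC synthetic RNAs. The 2 SMC2 libraries are also made with different hairpins, and GFP and SMC1 have 1 library each. There is thus no replicate of either CAPH2 hairpin, and the level of knockdown and the sequence of the hairpin cannot be told apart. In bulk RNA, fewer cells of a type and less RNA per cell cannot be told apart either.

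Condensin complexes are SMC protein rings that shape chromosomes. Condensin II resides in the nucleus throughout the cell cycle and shares the SMC2 and SMC4 subunits with condensin I, from which it differs in CAPH2, CAPG2 and CAPD3. Among the programs that differed most between the hairpins were targets of p53, a transcription factor stabilised by DNA damage and other stress, and targets of HIF, the factor that is degraded in oxygen and that drives glycolytic and other hypoxia-response genes.

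Ncaph2 was lower with R1 on the scale of library reads. Its level (RefSeq NM_001115132, mm9 chromosome 15, positions 89186153 to 89203259, plus strand) was 80.2 RPKM (reads per kilobase of exon, scaled to the library's reads) in the GFP library, 27.9 in R2 and 16.9 in R1. The R1 library therefore kept 21.0% of the control level (95% counting interval 19.8 to 22.3) and the R2 library 34.8% (33.0 to 36.7), and the intervals did not overlap. On the log2 scale the losses were -2.25 and -1.52, a ratio of 1.48. The direct ratio of R1 to R2 was 0.605 (0.562 to 0.650). The pair was chosen because the hairpins left different Ncaph2 levels, so this gap is a description and no test. On the scale of the ERCC synthetic RNAs this gap was nearly absent, with a log2 ratio of R1 to R2 of -0.047 in place of -0.73, so the ranking of the hairpins by strength rests on library-read scaling. The SMC2 libraries had 63.9 and 64.9 RPKM of Ncaph2, close to each other and nearer to the control. All counting intervals given here cover counting error only.

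**Figure D1:**
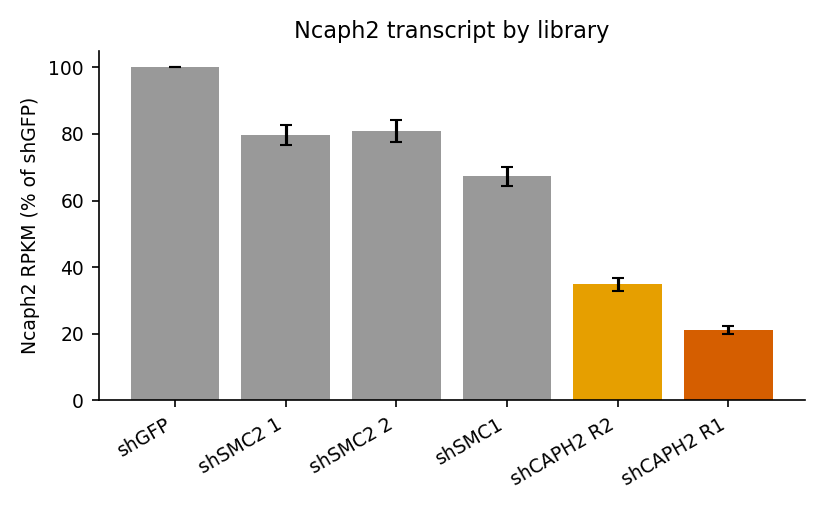
Ncaph2 level in each library as a percent of the GFP library (bars), with 95% counting intervals. R1 kept 21.0% and R2 34.8%, while the SMC2 libraries kept 79.6% and 80.9%.

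Of the 8 condensin subunit genes, Ncaph2 was the member that passed the call, which asked for a ratio of at least 1.5-fold in RPKM whose 95% counting interval excluded 1. Smc2, the shared ATPase subunit, had 42.3 RPKM in R1 and 40.6 in R2, against 26.6 in the GFP library. Smc1a, of cohesin, had 47.0 and 46.2 RPKM, and none of 13 cohesin genes was called between the hairpins.

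Between the hairpins 387 of 12461 genes were called (3.11%), 277 higher in R1 (2.22%) and 110 lower (0.883%). The same rule called 151 of 12403 genes (1.22%) between the 2 SMC2 hairpins, 45 higher in the first SMC2 library (0.363%) and 106 lower (0.855%). The SMC2 hairpins left 70.7% and 71.9% of the control Smc2 level, so that pair differed little in knockdown. A 2-fold change was passed by 67 genes between the CAPH2 hairpins and by 13 between the SMC2 hairpins. Most of the transcriptome moved little, since the median absolute log2 ratio was 0.107 for the CAPH2 pair and 0.098 for the SMC2 pair. There were 28 genes called in both pairs, which is 7.24% of the CAPH2 calls and 18.5% of the SMC2 calls.

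**Figure D2:**
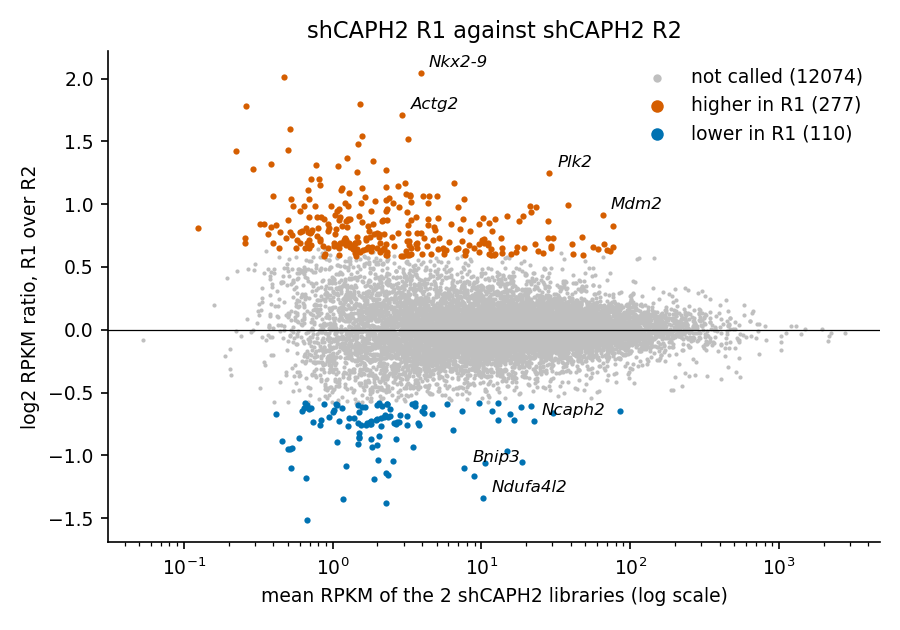
Each point is 1 of the 12461 genes, with the mean RPKM of the 2 CAPH2 libraries on a log axis and the log2 ratio of R1 to R2 on the other. The 277 genes called higher and the 110 called lower lay mostly at low levels, where counting error is larger.

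To set the hairpin difference against a measured spread, edgeR was fitted with the 2 SMC2 libraries as the repeated group. That pair gives 1 residual degree of freedom, and it holds the spread between hairpins, not between repeats of 1 hairpin. The fit estimated infinite prior degrees of freedom, so each gene's quasi-likelihood spread was set to the trend over all genes, and the adjusted p-values do not reflect a gene's own spread. The genes called above were picked for a large ratio between the same 2 CAPH2 libraries, which favours a pass in this fit. At an adjusted p under 0.05 it called 309 of 14489 genes (2.13%), 204 higher and 105 lower in R1. Of the 387 genes above, 181 passed this test too, 142 of the higher genes and 39 of the lower ones. DESeq2 on the same design called 27 genes.

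Calls were frequent among weakly expressed genes. Of the 3116 genes with the lowest RPKM 9.28% were called, and of the 3115 with the highest 0.449%. Gene length made little difference, with 3.11% called of the 3115 longest and 3.43% of the 3116 shortest. Over the autosomes and the X chromosome, the median log2 ratio of a chromosome lay between -0.027 and 0.025 of the median of all genes. Just inside the call were a transcript with no gene name (NM_139233) at 1.504-fold higher and Spata31d1b at 1.501-fold lower, and just outside were Ptges at 1.499-fold higher and Evx1 at 1.497-fold lower.

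The 12 higher genes with the largest ratios among those with 200 or more counts summed over R1 and R2 were all highest in R1 among the GFP, CAPH2 and SMC2 libraries. Nkx2-9, a homeobox factor, led them with 6.28 RPKM in R1 and 1.52 in R2, against 1.07 in GFP and 2.69 and 2.46 in the SMC2 libraries, a log2 ratio of 2.04. Scn3b, a sodium channel subunit, had 2.70 RPKM in R1 and 1.07 in R2. Inhba, which encodes the activin A subunit, had 9.001 RPKM in R1, 4.00 in R2, 2.34 in GFP and 7.23 and 6.25 with the SMC2 hairpins, so that the SMC2 libraries were also well above the control. The SMC1 library was above R1 for Inhba, with 23.6 RPKM, and under R1 for Nkx2-9, with 4.10. Others were Plk2, the costimulatory ligand gene Cd80, Cyyr1, the actin-oxidising enzyme gene Mical2, Ssc5d, Ankrd1, Cpz and Zfp750, with log2 ratios of 1.07 to 1.25. All 12 passed the edgeR test. They had been picked for a large ratio of R1 to R2, which favours both R1 as the highest library and a pass in edgeR.

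The 12 lower genes with the largest ratios held several HIF targets. Besides Ndufa4l2, Bnip3, Ankrd37, Egln3 and Aldoc, described below, they were Ndrg1, Lhx1, Nsg2, Grin1, Nhsl2, Slc30a3 and Proser2, and 11 of the 12 passed edgeR. Ndrg1, a stress-response gene that hypoxia also induces, had 22.7 RPKM in GFP, 12.3 in R2, 5.49 in R1 and 6.21 and 10.3 in the SMC2 libraries. Lhx1, a LIM homeobox factor of mesendoderm, was ordered otherwise, with 1.72 RPKM in GFP, 2.63 in R2 and 1.15 in R1. R1 was the lowest of these 5 libraries for 8 of the 12 genes. The choice of genes with a low ratio of R1 to R2 favours that place and a pass in edgeR.

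Of 22 measured p53 pathway genes, 8 were higher in R1 and none was lower, and edgeR called 12, all higher. Over all genes 2.22% were called higher, and edgeR called 2.13% in either direction. Their median log2 ratio of R1 to R2 was 0.46, against 0.0055 over all genes. Plk2, a polo-like kinase, had 10.1 RPKM in GFP, 16.8 in R2 and 40.0 in R1, with 18.8 and 19.5 in the SMC2 libraries. Of these 5 libraries R1 alone stood far above the rest, 2.37-fold over R2 (2.20 to 2.56). The SMC1 knockdown library, outside these 5, was also high, with 36.3 RPKM of Plk2. Mdm2, the ubiquitin ligase that limits p53, had 38.9 RPKM in GFP, 45.3 in R2, 85.4 in R1 and 51.8 and 53.9 with the SMC2 hairpins. Perp, a p53-induced membrane protein, had 17.7 RPKM in GFP, 25.4 in R2, 50.6 in R1 and 23.8 and 28.4 with the SMC2 hairpins. The ratios of R1 to R2 were 1.88 (1.80 to 1.97) for Mdm2 and 2.00 (1.85 to 2.16) for Perp. Cdkn1a, the p21 inhibitor of cyclin-dependent kinases, had 82.2 RPKM in R1 while the other 4 libraries lay within 49.1 to 51.6, R2 at 51.3. The other called members were Btg2, Phlda3, Pmaip1 and Trp53inp1, and R1 was the highest of these 5 libraries for all 8. A call of higher in R1 favours that place. Over all 22 measured genes, called or not, R1 was the highest for 17.

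Not every p53 target differed. Trp53 itself had 226 RPKM in R1 and 217 in R2. The apoptosis genes Bax (log2 ratio 0.099) and Bbc3 (0.044) and the cytokine gene Gdf15 (-0.23) were not called. Between the SMC2 hairpins none of the 22 genes was called, and their median log2 ratio was -0.05.

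The hypoxia-response genes went the other way. Of 25 measured, 6 were lower in R1 and 1, Pfkfb4, was higher, and edgeR called 15, all lower. Over all genes 0.883% were called lower and 2.22% higher, and edgeR called 2.13%. Their median log2 ratio was -0.38. Ndufa4l2, a HIF-induced mitochondrial protein, had 29.3 RPKM in GFP, 14.7 in R2 and 5.79 in R1, with 4.11 and 8.61 in the SMC2 libraries. The control was thus the highest and R1 lay between the SMC2 libraries. Bnip3, a mitophagy receptor, had 17.2 RPKM in GFP, 10.4 in R2, 4.86 in R1 and 4.78 and 7.59 with the SMC2 hairpins. Egln3, an oxygen-sensing prolyl hydroxylase, had 48.5 RPKM in GFP, 25.3 in R2, 12.2 in R1 and 12.8 and 22.1 with the SMC2 hairpins. In each case all 4 condensin libraries were under the control. The SMC1 library was under it too, with 1.35 RPKM of Ndufa4l2, 5.005 of Bnip3 and 7.485 of Egln3. The ratios of R1 to R2 were 0.394 (0.317 to 0.488) for Ndufa4l2, 0.466 (0.389 to 0.556) for Bnip3 and 0.483 (0.441 to 0.528) for Egln3. Ankrd37, Aldoc and the repressor gene Bhlhe40 were the other lower members. Among those not called, Vegfa (-0.42), which encodes the angiogenic factor, and the glucose transporter gene Slc2a1 (-0.37) passed edgeR.

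**Figure D3:**
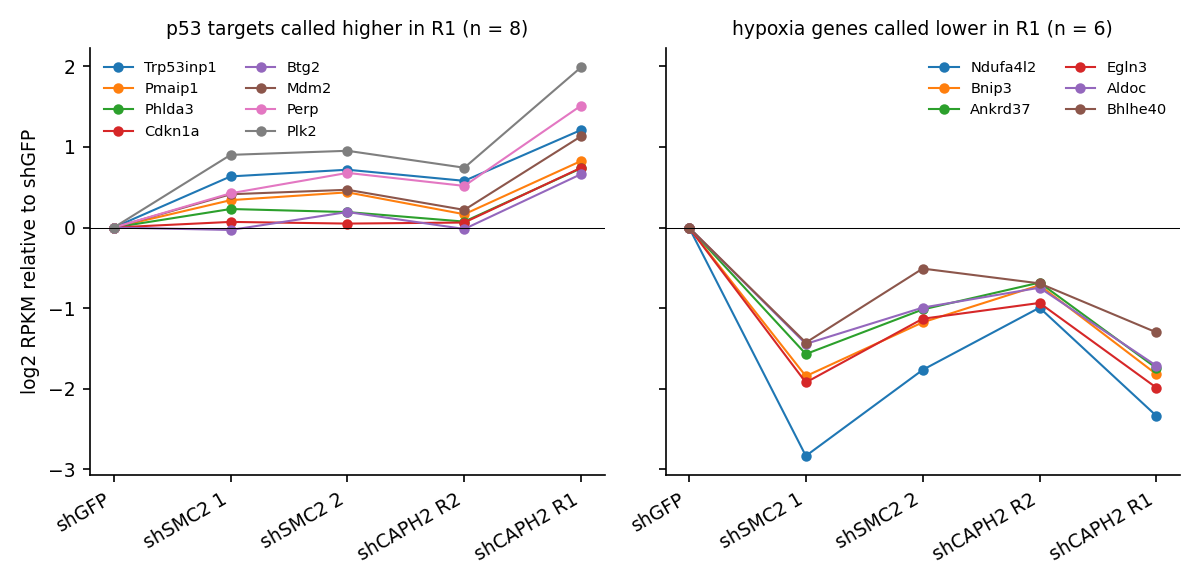
Levels of the 8 p53 targets called higher and the 6 hypoxia-response genes called lower in R1, as log2 RPKM relative to the GFP library, in the SMC2 and CAPH2 libraries. The p53 targets were highest in R1, whereas the hypoxia genes were low in R1 and also in the first SMC2 library; lines only join the values of 1 gene.

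The same hypoxia-response genes also differed between the SMC2 hairpins. There 5 of 24 were lower in the first SMC2 library, against 0.855% of all genes, and none was higher. The median log2 ratio was -0.29, although the Smc2 levels left were 70.7% and 71.9% and the Ncaph2 levels 79.6% and 80.9%. The first SMC2 library was under the second for 23 of the 25 genes, and under CAPH2 R1 for 14 of the 25.

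The upstream sequences of several of these genes are shown because HIF recognises a short core, ACGTG, that is often found close to the start of its targets. The windows are the 250 bases before the RefSeq start in GRCm38.p6, a later build than the mm9 of the count tables. Capitals mark ACGTG on either strand, with overlapping matches counted, so the E-box CACGTG counts on both strands.

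Ankrd37 (chr8:45999851-46000100, minus strand): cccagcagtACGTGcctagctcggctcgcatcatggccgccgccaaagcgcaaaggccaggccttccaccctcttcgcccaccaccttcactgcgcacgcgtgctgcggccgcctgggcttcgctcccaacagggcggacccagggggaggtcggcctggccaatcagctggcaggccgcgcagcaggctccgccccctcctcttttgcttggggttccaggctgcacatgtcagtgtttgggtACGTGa
Bnip3 (chr7:138909507-138909756, minus strand): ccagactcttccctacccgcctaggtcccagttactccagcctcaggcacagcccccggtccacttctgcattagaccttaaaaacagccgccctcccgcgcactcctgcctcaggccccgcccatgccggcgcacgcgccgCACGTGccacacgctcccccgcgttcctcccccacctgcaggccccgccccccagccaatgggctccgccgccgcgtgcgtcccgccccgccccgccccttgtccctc
Egln3 (chr12:54203875-54204124, minus strand): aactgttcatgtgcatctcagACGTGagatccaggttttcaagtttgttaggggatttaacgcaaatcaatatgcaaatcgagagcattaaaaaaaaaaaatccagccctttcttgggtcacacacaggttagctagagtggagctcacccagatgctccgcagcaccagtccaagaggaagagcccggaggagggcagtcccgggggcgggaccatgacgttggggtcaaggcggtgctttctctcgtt
Aldoc (chr11:78322823-78323072, plus strand): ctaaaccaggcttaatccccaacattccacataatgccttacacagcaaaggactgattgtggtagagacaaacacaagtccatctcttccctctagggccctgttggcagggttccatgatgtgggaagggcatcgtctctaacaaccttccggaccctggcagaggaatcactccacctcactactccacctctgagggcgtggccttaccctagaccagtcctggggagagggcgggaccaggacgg

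Aldoc, called lower as well, held no match in this window. The core was present in 14 of the 22 hypoxia-response genes with a window (63.6%), in 22.2% of the 9841 tested genes with one and in 16.5% of all 27025 windows. Among the 77 genes called lower in R1 that had a window, 16 held it (20.8%). A p53 half-site was searched in the same way and was found in 6 of 17 p53 pathway genes (35.3%). It was found in 21 of 197 genes called higher (10.7%) and 2 of 77 called lower (2.6%). The share was 5.9% of the tested genes with a window and 7.16% of all windows. Mdm2 and Cdkn1a are shown with their matches in capitals, beside Plk2, which had the largest ratio among the p53 targets.

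Mdm2 (chr10:117710759-117711008, minus strand): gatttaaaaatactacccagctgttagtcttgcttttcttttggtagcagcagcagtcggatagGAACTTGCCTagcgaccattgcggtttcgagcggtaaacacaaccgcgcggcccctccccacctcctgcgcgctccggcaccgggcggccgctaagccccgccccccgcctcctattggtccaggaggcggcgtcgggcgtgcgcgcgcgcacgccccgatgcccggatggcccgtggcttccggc
Cdkn1a (chr17:29090729-29090978, plus strand): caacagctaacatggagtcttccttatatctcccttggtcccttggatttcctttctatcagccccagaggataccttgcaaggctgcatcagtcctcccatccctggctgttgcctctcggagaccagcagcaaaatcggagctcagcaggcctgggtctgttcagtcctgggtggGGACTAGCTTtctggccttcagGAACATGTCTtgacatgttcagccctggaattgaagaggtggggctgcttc
Plk2 (chr13:110394794-110395043, plus strand): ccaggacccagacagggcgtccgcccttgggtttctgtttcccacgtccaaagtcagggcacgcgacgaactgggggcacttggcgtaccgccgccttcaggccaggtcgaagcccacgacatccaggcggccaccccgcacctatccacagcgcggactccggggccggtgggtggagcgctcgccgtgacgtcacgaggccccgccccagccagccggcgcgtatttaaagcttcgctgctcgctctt

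The Plk2 window held no p53 half-site and 1 ACGTG core. A match is a sequence feature only, since no binding of HIF or p53 was measured.

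The programs were then read against the strength of knockdown, as levels relative to the GFP library. Both CAPH2 libraries share that control. The order GFP, R2, R1 is that of Ncaph2 levels on this scale. R2 lay between GFP and R1 in 184 of the 277 higher genes (66.4%, 95% Wilson interval 60.7 to 71.7) and in 74 of the 110 lower genes (67.3%, 58.1 to 75.3). The Wilson intervals take genes as independent, although all were measured in the same single libraries. They therefore do not tell whether the order would recur in other libraries. GFP lay between the hairpins, which is to say that they moved in opposite directions, in 89 of the higher genes and 31 of the lower ones. In tested genes that were not called, R2 lay between in 55.01% and 59.5%, but these shares cannot be set against those of the called genes. The called genes had been chosen for a wide gap between R1 and R2, which leaves few with R1 in the middle (1.44% and 4.55%, against 26.7% and 26.8% of genes not called). Without the genes that had R1 in the middle the order of the shares turned round, with R2 between in 67.4% and 70.5% of called genes and in 75.1% and 81.3% of the others.

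On the scale of library reads, the SMC2 libraries stood further from the control than R2 in the medians of the called genes. The SMC2 libraries kept 79.6% and 80.9% of Ncaph2 on that scale. Their place relative to GFP depends on the scaling, as stated below for the ERCC RNAs. With the mean of the SMC2 libraries in place of GFP, R2 lay between it and R1 in 41 of the 277 higher genes (14.8%) and 7 of the 110 lower genes (6.36%), and the SMC2 mean lay between the hairpins in 84.8% and 90.9%. The called higher genes had median log2 changes from GFP of 0.42 and 0.40 in the SMC2 libraries, and the called lower genes -0.58 and -0.43. The choice of a wide gap between R1 and R2 favours any other library in the middle here too.

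The sizes of change, also scaled to library reads, stood as follows beside the Ncaph2 losses of -2.25 in R1 and -1.52 in R2. The called higher genes had a median log2 change from GFP of 0.98 in R1 and 0.20 in R2 and the called lower genes -0.98 and -0.19. These medians rest on genes picked for the difference. For whole lists, called members and others, the p53 genes had medians of 0.63 in R1 and 0.084 in R2, and R2 lay between GFP and R1 in 16 of 22. The hypoxia-response genes had medians of -0.73 in R1 and -0.54 in R2, with R2 between in 24 of 25. Cholesterol synthesis genes had medians of -0.63 and -0.29, with R2 between in 20 of 22. The p53 genes thus sat near the control in R2, while the hypoxia-response genes were already well under it. In the SMC2 libraries the medians were 0.12 and 0.19 for the p53 genes, -0.73 and -0.51 for the hypoxia-response genes and -0.37 and -0.34 for the cholesterol synthesis genes.

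**Figure D4:**
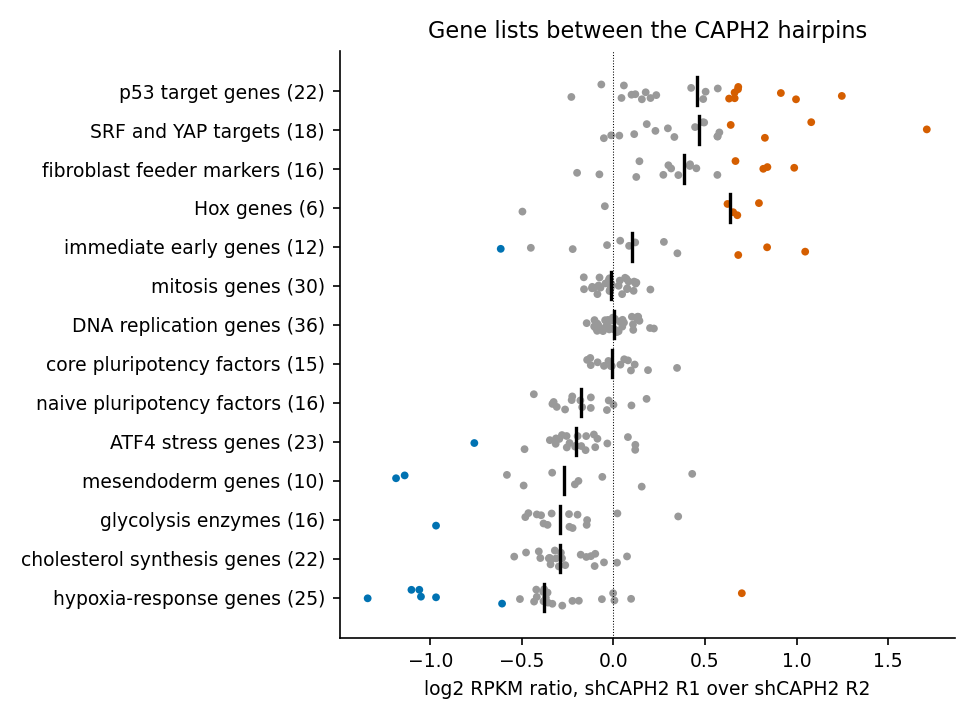
Log2 ratio of R1 to R2 for each measured member of 14 gene lists, with the number of members in parentheses and the list median as a black bar; orange and blue points were called higher and lower. The p53 and SRF and YAP lists lay to the right, the hypoxia and cholesterol lists to the left, and the mitosis and replication lists around 0.

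Glycolysis and cholesterol synthesis genes mostly had ratios below 1, few of them past the 1.5-fold call. Of 16 glycolysis enzymes, Aldoc, which is also on the hypoxia list, was called lower, 14 of 16 were below 0, and the median log2 ratio was -0.29. Several members passed edgeR, all lower, and R1 was the lowest of the GFP, CAPH2 and SMC2 libraries for 9 of 16. The SMC2 hairpins separated this list in the same direction, with a median of -0.15 and the first SMC2 library under the second for 14 of 16. Tpi1, triosephosphate isomerase, had 266 RPKM in GFP, 220 in R2 and 158 in R1, with 176 and 179 in the SMC2 libraries. None of 22 cholesterol synthesis genes was called, yet 20 were below 0 with a median of -0.29, and edgeR called 4, all lower. Insig1, a sterol-sensing regulator of the pathway, had 94.3 RPKM in GFP, 64.7 in R2, 44.5 in R1 and 59.0 and 61.5 with the SMC2 hairpins. R1 was the lowest of these 5 libraries for 20 of the 22 genes. The SMC2 hairpins did not separate this list, with a median log2 ratio between them of 0.02. Of 23 ATF4 stress genes 1, Vldlr, was called lower, near the 3.11% of all genes called in either direction, and the median was -0.21. Of the 23, 20 were below 0, edgeR called 3, all lower, and R1 was the lowest of these 5 libraries for 18. The median log2 ratio between the SMC2 hairpins was 0.05.

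Some contractile and matricellular targets of SRF and YAP, which respond to actin and to cell tension, were higher in R1. Of 18 measured, 4 were called, all higher, edgeR called 9, and the median log2 ratio was 0.47. Over all genes 2.22% were called higher and edgeR called 2.13%. Acta2, smooth muscle actin, had 60.2 RPKM in GFP, 55.1 in R2, 97.7 in R1 and 66.7 and 50.4 with the SMC2 hairpins. Ccn2, a matricellular growth factor, had 40.1 RPKM in GFP, 47.5 in R2, 74.1 in R1 and 52.8 and 47.1 with the SMC2 hairpins. R1 was the highest of these 5 libraries for both genes and R2 was close to the control. The SMC1 library was higher still, with 171 RPKM of Acta2 and 138 of Ccn2. Actg2 and Ankrd1 were the other called members, both under 5 RPKM. Both were also called higher in the first of the SMC2 libraries, with log2 ratios of 0.79 and 0.86. Actb, cytoplasmic actin, was 819 RPKM in R1 and 801 in R2, and neither it nor Actg1, Srf or Vcl was called.

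Fibroblast genes, which could come from feeder cells left in the culture, moved with these. Of 16 measured markers 4 were called, Lox, Col5a2, Postn and Col1a1, all higher in R1, against 2.22% of all genes. Of the 16, 14 were above 0. Summed over the list, the level was 94.0 RPKM in GFP, 110 in R2, 157 in R1 and 127 and 113 in the SMC2 libraries. The sum was 256 RPKM in the SMC1 library. Col1a1, a fibrillar collagen, had 20.8 RPKM in GFP, 22.8 in R2 and 36.1 in R1. None of these markers was at 0, and their part in the SRF, YAP and p53 results was not tested.

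ESC identity genes differed little. Pou5f1, which encodes OCT4, had 1107 RPKM in R1 and 1128 in R2, Sox2 had 296 and 323, and Nanog had 338 and 368. None of 15 core and none of 16 naive pluripotency factors was called. The naive factors leaned lower in R1, with 13 of 16 below 0 and a median of -0.18, and edgeR called 1, Tcl1, at 43.1 RPKM in R1 and 58.3 in R2. Of 10 mesendoderm genes, Lhx1 and Mesp1 were called lower, against 0.883% of all genes, and Mesp1 did not pass edgeR. Esx1 (lower) and Krt7 (higher) were called among 13 trophectoderm genes and Nrcam (higher) among 9 neural genes. Over all genes 3.11% were called in either direction. Esx1 and Krt7 did not pass edgeR, and Krt7 was called lower in the first SMC2 library, with a log2 ratio of -0.78. No primitive endoderm or formative epiblast gene was called.

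Of 12 immediate early genes, Btg2, Egr2 and Fosl1 were higher and Ier3 was lower, against 2.22% and 0.883% of all genes. Egr2 did not pass edgeR, and Ier3 was also called lower in the first SMC2 library, with a log2 ratio of -0.76. The Hox genes Hoxb9, Hoxc13 and Hoxd13 were called higher, all under 3 RPKM, and none of them passed edgeR. Other lists had 1 call each, against 3.11% called over all genes, and these were lower in R1: Ifit2 among 16 interferon-stimulated genes, Gstm3 among 26 NRF2 and glutathione genes and H19 among 26 imprinted genes. Of these H19 passed edgeR, with 22 RPKM in GFP, 19.2 in R2 and 12.1 in R1.

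Abundant housekeeping genes were rarely called in any list, as 0.449% of the 3115 genes with the highest RPKM were. No gene was called among 30 mitosis genes (median log2 ratio -0.015), 36 DNA replication genes (0.0011), 78 cytoplasmic and 78 mitochondrial ribosomal protein genes, or 77 subunits of oxidative phosphorylation. No call was made among the Nodal, BMP, Wnt, FGF-ERK and LIF-STAT3 pathway genes, the Polycomb and DNA methylation genes, the germline genes, the histone genes or the small non-coding RNAs. The 21 measured clustered protocadherin rows share exons and had near-identical ratios, 0.057 to 0.091. None of 9 genes of the 2-cell embryo had enough counts to be tested.

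These values are scaled to the reads of each library. The share of ERCC reads was 1.496% in R1, 2.40% in R2 and 2.32% in GFP, so scaling to the ERCC RNAs, which were added by cell number, raises every log2 ratio of R1 to R2 by 0.68. On that scale the Ncaph2 ratio was -0.05, and the order of genes within the comparison is unchanged. The share of ERCC reads was 1.49% and 1.57% in the SMC2 libraries. Levels of R1 and of both SMC2 libraries relative to GFP would thus also rise on that scale, while R2 would move little. The changes from GFP given above, for called genes and for gene lists, therefore rest on library-read scaling.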

How the data were processed

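RNA-seq of 6 libraries was used. Alignment to mm9 was done by the authors with Bowtie, and reads with several alignments were dropped, so genes with near-identical copies lose reads (Gapdh, for example, had under 3 RPKM). The authors deposited raw exonic read counts for every RefSeq transcript (reads in exons common to isoforms count more than once) and RPKM values, normalised by exon length and library reads without the ERCC RNAs as reference. That depth was 18823246 to 23324535 reads.

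ERCC rows were set aside, and the transcript with most counts over the 6 libraries was kept per gene. Names came from RefSeq accessions for 25349 of the 26073 rows and from overlap with GENCODE for 576. Ratios were taken from RPKM with no pseudocount, with a 95% exact binomial interval on the counts. edgeR 4.0.16 (TMM, quasi-likelihood, R 4.3.3) fitted the CAPH2 and SMC2 libraries on the deposited counts, and DESeq2 1.42.0 was the alternative. Both were run with Benjamini-Hochberg adjustment. The edgeR step was also run on simulated data in which all libraries shared the same spread. That run cannot check whether the CAPH2 libraries vary like the SMC2 hairpins. No sample was shown to be a separate culture, so p-values measure the spread between these libraries. The named genes were the 12 called genes with the largest ratio in each direction among those with 200 or more counts summed over R1 and R2, the targeted genes, Pou5f1, Sox2 and Nanog, and up to 4 called members per list, or the most counted member where none was called. Some genes that meet this rule are not reported here. Other members named were chosen after their values were seen. The comparison and the 38 gene lists were chosen with earlier results of these data known.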

Additional observations from a re-analysis of the deposited data

Results flagged for a closer look

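The ERCC reads, which the comparison itself did not use, took 2.40% of the reads in the R2 library. That is above the 2.32% of the GFP control, and R1 had 1.496% with 1.49% and 1.57% in the SMC2 libraries. What the difference reflects was not tested.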

How the results depend on the processing

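TMM and DESeq2 size factors shifted every log2 ratio of R1 to R2 by -0.020 and -0.011, and no count, share or list median left its range under them. Of the 387 calls, 365 were kept with TMM and 376 with size factors, and the share of calls that were higher went from 71.6% to 67.8% and 69.6%. Scaling to ERCC counts shifted every ratio by 0.68: 9187 genes were then higher and 4 lower, 21 p53 targets were higher and 1 hypoxia-response gene lower, the Ncaph2 log2 ratio was -0.047, and R2 lay between GFP and R1 for 44.5% of higher and 50% of lower genes. Ier3, Ifit2 and H19 then changed sign, to log2 ratios of 0.064, 0.086 and 0.008. With a 2-fold call there were 51 higher and 16 lower genes, 13 between the SMC2 hairpins and 1 p53 target (Plk2), and R2 lay between for 76.5% of the higher genes. A minimum of 10 counts gave 189 lower genes and 307 between the SMC2 hairpins, no filter gave 198 and 336, and a minimum of 200 counts gave 121 higher and 29 lower genes and 23 between the SMC2 hairpins. A pseudocount of 1 RPKM gave 103 higher and 26 lower genes and 24 between the SMC2 hairpins. All calls of these stricter settings were among the 387. edgeR called 297 to 309 genes under its other settings and DESeq2 27 of 6343 with an adjusted p; 1404 genes had an unadjusted edgeR p under 0.05 and 303 in DESeq2, and the cause of the gap was not tested.

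List medians relative to all genes moved with a minimum of 200 counts for primitive endoderm (0.20), trophectoderm (0.16), mesendoderm (-0.067), immediate early (-0.0049) and histone genes (-0.34), and with every RefSeq row for SRF and YAP targets (0.31) and germline genes (0.14). Leaving out an SMC2 library leaves no residual degrees of freedom, so that fit was not run. No paired analysis was possible because the CAPH2 hairpins have 1 library each. Each comparison of 1 library with 1 library has no replicate check.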
